A study of Mus musculus with 6 samples.

Results

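The Hox genes of the mouse encode homeodomain transcription factors and lie in 4 clusters, Hoxa to Hoxd. Their levels were read from the arrays of sorted mammary tumour cells of MMTV-Wnt-1 mice. Members were all genes with a single platform symbol made of Hoxa, Hoxb, Hoxc or Hoxd and a number, whatever their level, each represented by 1 probe set, the one whose mean over the 6 arrays was highest. This gave 33 of the 18193 genes measured, and 33 of the 39 protein-coding Hox genes in the RefSeq table of GRCm38.p6. Hoxb8 and Hoxd4 appear only in probe sets that carry a second symbol and are no members.

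MMTV-Wnt-1 is a transgenic line in which the promoter of mouse mammary tumour virus drives Wnt1 in mammary epithelium. Both populations carry the transgene. Tumours of 3 mice were sorted by fluorescence into a population called tumorigenic, gated CD24+Thy+CD45-, and one called nontumorigenic, whose label negates that gate without settling whether the negation covers CD45. Each population of each mouse was hybridised to 1 array, so that 3 arrays stood against 3. The sources used here do not give the age or strain of the mice, any further treatment, or whether animals were pooled. The p-values rest on the spread between the arrays of these 3 mice within a label. They leave out the pairing by mouse, except where the mouse was fitted as a block.

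Low paralogue numbers lie at the 3' end of each cluster and act towards the head of the embryo, and high numbers lie at the 5' end and act towards the tail. Paralogues with 1 number in different clusters descend from 1 ancestral gene and share much of their function. Hox proteins bind DNA together with the TALE homeodomain proteins Pbx, Meis and Pknox. In the mammary gland, paralogues of group 9 are needed for its growth in pregnancy, and Hoxc8 and Hoxc6 take part in placing and shaping the gland. Hox genes are also active in stroma, endothelium and blood cells, which a tumour contains.

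The gate markers did not all follow the labels. Ptprc, which encodes CD45, read log2 10.21, 7.76 and 3.82 in the labelled tumorigenic arrays of mice 1, 2 and 3, and 2.34 to 3.59 in the labelled nontumorigenic arrays. Cd24a read 11.85, 12.34 and 12.84 under the tumorigenic label against 12.86, 12.84 and 12.99, lower in each mouse. Thy1 overlapped, at 10.83, 10.51 and 9.33 against 10.25, 9.67 and 10.04, and was lower in mouse 3. The populations are therefore called by their labels throughout. Of 11 leukocyte markers 10 were higher without overlap under the tumorigenic label, with a mean level of the list from 6.49 to 11.34 against 4.50 to 4.80. Of 10 endothelial markers 9 were higher without overlap, at 7.13 to 7.86 against 5.61 to 6.31. Of 9 luminal epithelial markers 6 were lower without overlap, at 5.85 to 7.85 against 8.92 to 9.21. Over all genes, 6.07% were higher and 5.16% lower without overlap. Wnt1 itself read 5.92 to 6.77 under the tumorigenic label and 7.54 to 8.61 under the other (limma adjusted p = 0.366). The labelled tumorigenic array of mouse 2 stood apart in its Gapdh controls, where the 3' probe set exceeded the 5' one by 6.60 log2 units against 2.41 to 3.81 on the other arrays. It also had the highest adipocyte marker mean, 7.69 against 3.91 to 5.38.

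**Figure D1:**
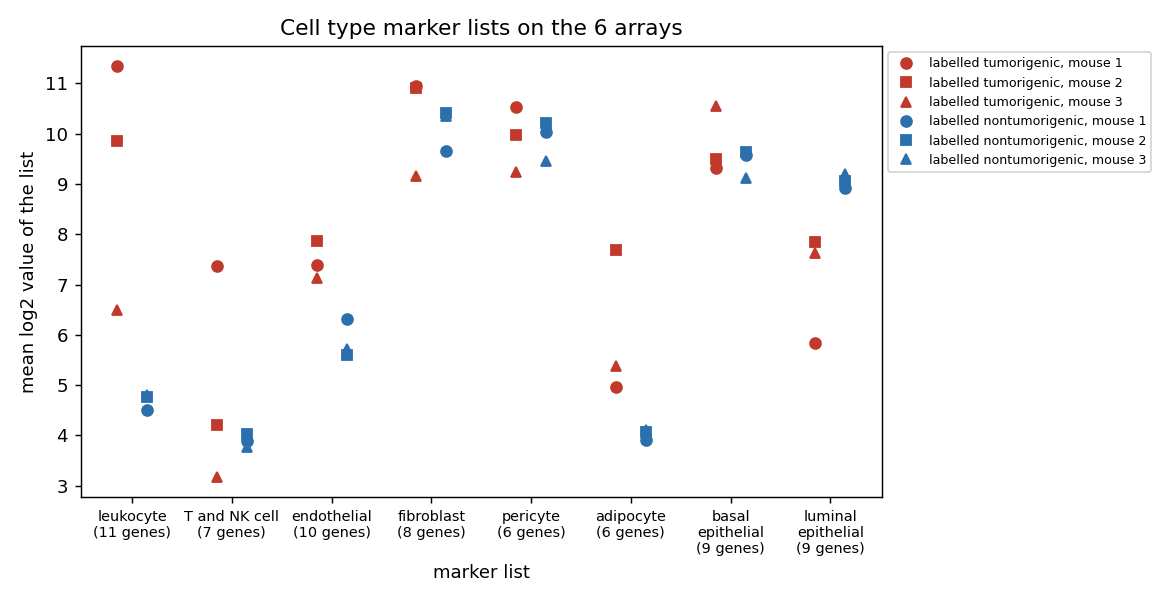
Mean log2 value of 8 lists of cell type markers (y axis) on each of the 6 arrays, with the lists on the x axis, colour for the population and symbol for the mouse. Leukocyte means of the arrays labelled tumorigenic run from 6.49 in mouse 3 to 11.34 in mouse 1, and the fibroblast mean is lowest, at 9.16, on the labelled tumorigenic array of mouse 3.

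Against an olfactory receptor reference, a smaller share of the Hox genes than of all genes read above background on all 6 arrays. All measured paralogues of group 9 did so, and no measured gene of groups 1, 11 and 13. The deposited table has no detection calls, so a gene is called detected where its value exceeded the 95th percentile of 38 olfactory receptor genes on the same array, a level of log2 3.06 to 3.58. Of the 33 Hox genes, 19 were detected on all 6 arrays, against 68.1% of all genes. By paralogue number these were 6 of 10 anterior genes (numbers 1 to 4), 7 of 9 central genes (5 to 8) and 6 of 14 posterior genes (9 to 13). Above the median of all probe sets of the array, a level of about log2 4.36 to 4.40 and a stricter mark, 12 were found on all 6 arrays, against 54.6% of all genes. These were 4 of 10 anterior, 4 of 9 central and 4 of 14 posterior genes. At this stricter mark the central genes no longer exceeded the share of all genes. Hoxa9, of group 9, was above that median on only 2 arrays, Hoxa2 on 1 and Hoxa4 on none. Hoxa5, Hoxb5, Hoxc5 and Hoxd10 were above it on 5 arrays each. Probe sets differ in how they bind, so levels of different genes are not ranked.

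Group 9 was complete: Hoxa9, Hoxb9, Hoxc9 and Hoxd9 were detected on all 6 arrays. So were all 3 measured members of group 4, Hoxa4, Hoxb4 and Hoxc4, all 3 of group 5, Hoxa5, Hoxb5 and Hoxc5, and both of group 8, Hoxc8 and Hoxd8. In group 1, Hoxb1 and Hoxd1 were detected on no array, and in group 11, Hoxa11 and Hoxd11 on none. None of the 4 members of group 13 was detected on all 6 arrays. The detected genes ran from Hoxa2 to Hoxa9, from Hoxb3 to Hoxb9, from Hoxc4 to Hoxc9 and from Hoxd8 to Hoxd12, with gaps. Of these gaps, Hoxb6, Hoxb7 and Hoxd11 were measured but not detected on all arrays. Hoxa2 and Hoxa4 were dim among the detected genes, above the array median on 1 array and on none.

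**Figure D2:**
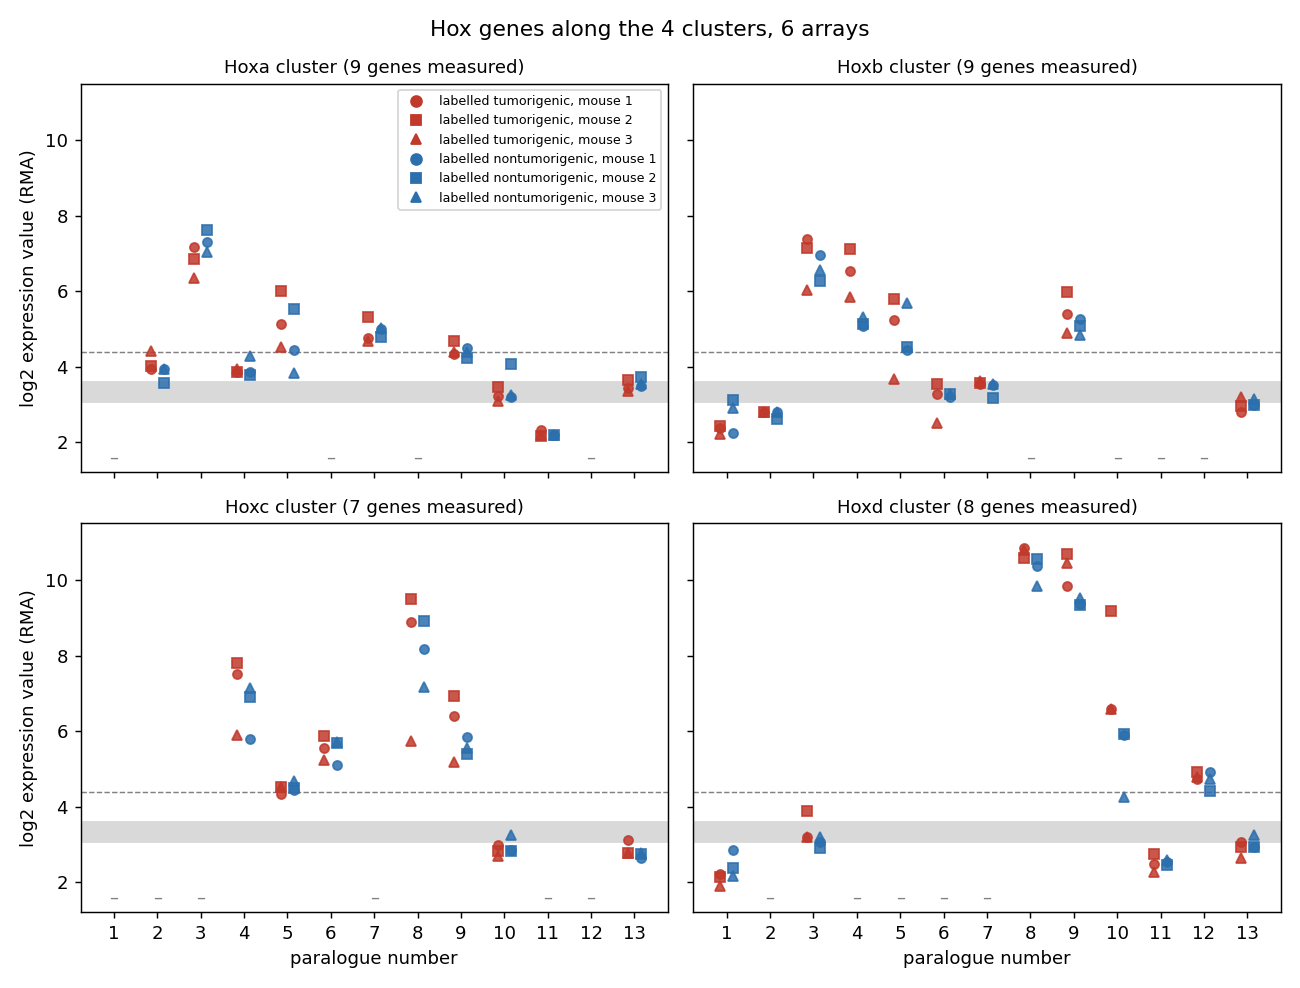
Log2 expression values (y axis) of the Hox genes by paralogue number (x axis) in the 4 clusters, 1 symbol per array, red for the labelled tumorigenic and blue for the labelled nontumorigenic population. The grey band spans the 95th percentiles of olfactory receptors, log2 3.06 to 3.58, the dashed line marks the mean of the array medians, and a short dash at the bottom marks a number with no measured gene. Hoxb6, at 2.51 to 3.54, lies within or below the band, and Hoxd8 and Hoxd9 read 9.34 to 10.84.

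No Hox gene passed the test between the populations. With limma over all 18193 genes, 0 of 33 members had an adjusted p below 0.05, against 0.0055% of all genes, and the smallest adjusted p among them was 0.495. Unadjusted, 2 members had a p below 0.05, Hoxb4 and Hoxd9, both higher under the tumorigenic label, against 4.74% of all genes in that direction. No member had one in the lower direction, against 3.0% of all genes. With the mouse as a block there were 4 such members, Hoxa5, Hoxb4, Hoxd9 and Hoxd10, again all higher, against 5.34% of all genes, and 0 lower, against 3.59%. The median log2 difference over the members was 0.055, with 19 positive and 14 negative differences, beside a median of -0.0044 over all genes. It was 0.13, 0.30 and -0.16 in mice 1, 2 and 3. It turned to -0.039 when each array was centred on the median of its 18193 gene values, where that of all genes was -0.098. Those gene values hold 1 probe set per gene, so their median is not the median of all probe sets of the array. The median Hox difference was -0.011 when the labelled tumorigenic array of mouse 2 was left out and -0.061 without mouse 2.

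The 3 arrays of one label lay wholly above those of the other in 5 members, all in the direction of higher values under the tumorigenic label: Hoxb4, Hoxd3, Hoxd8, Hoxd9 and Hoxd10. These are 15.2% of the members, against 6.07% of all genes, and no member lay wholly below, against 5.16%. With arrays centred on the median of their gene values the split was 3 above and 1 below, against 3.95% and 16.9% of all genes. The 1 below was Hoxd1. Leaving out the labelled tumorigenic array of mouse 3 gave 10 above, without mouse 1 there were 8 and without mouse 3 there were 13, against 15.3%, 15.9% and 20% of all genes. Members wholly below numbered up to 4, without mouse 1, which is 12.1% of the members against 12.2% of all genes. Of the 5 genes, 4 belong to the Hoxd cluster, where Hoxd8, Hoxd9 and Hoxd10 are direct neighbours on chromosome 2.

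**Figure D3:**
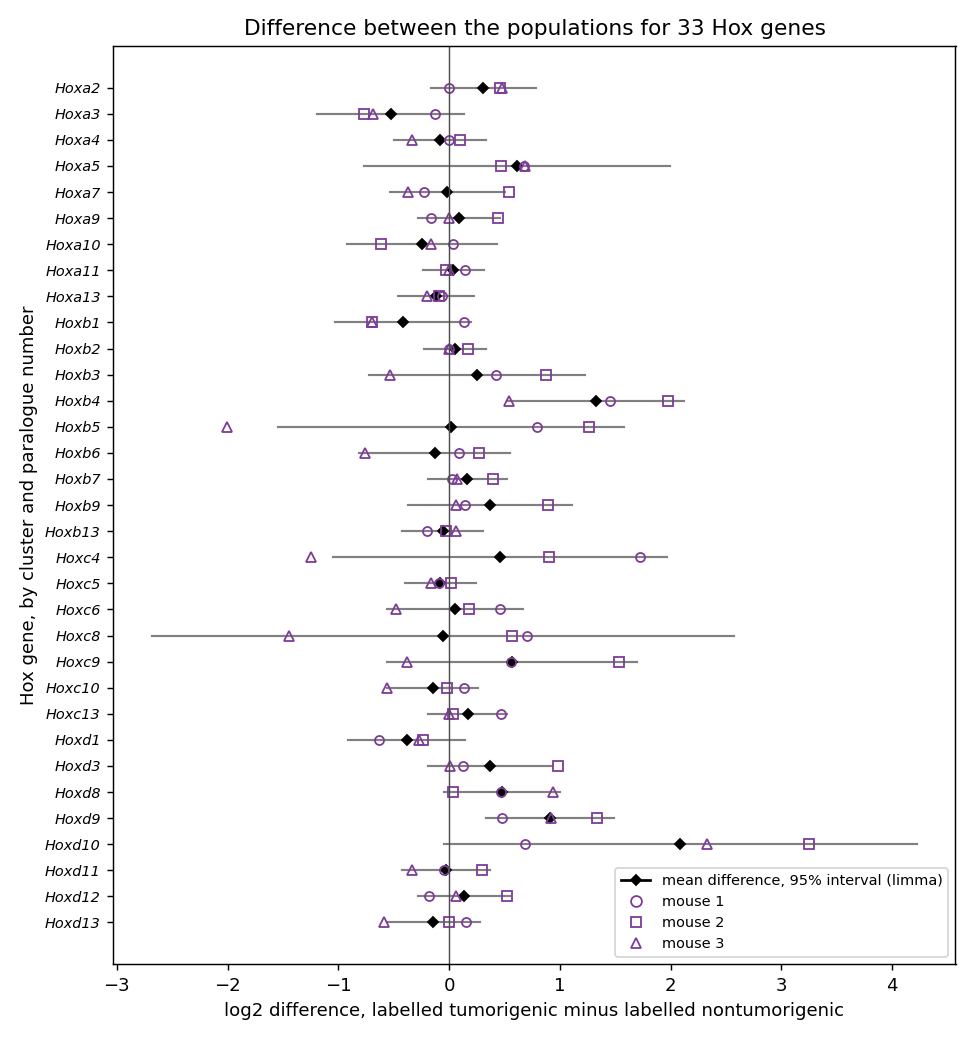
Log2 difference between the labelled tumorigenic and the labelled nontumorigenic population (x axis) for the 33 Hox genes (y axis), with the mean difference as a diamond, its 95% interval from limma as a line, and the differences within mice 1, 2 and 3 as open symbols. The intervals of Hoxb4 and Hoxd9 lie above 0, from 0.52 to 2.12 and from 0.33 to 1.49, and the triangles of mouse 3 for Hoxb5, Hoxc4 and Hoxc8 lie below -1.2.

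In the Hoxd cluster, Hoxd8, Hoxd9 and Hoxd10 read higher on each labelled tumorigenic array than on any of the others, without passing the test over all genes, while Hoxd3 and Hoxd11 on either side read near or below background. The sequences upstream of these 3 genes are shown because they are adjacent and differ in the same direction, and that of Hoxb4 because it is the other detected gene without overlap. Each line gives the 250 bases before the transcription start in RefSeq's annotation of GRCm38.p6, on the plus strand. The windows are chr2:74691641-74691890 for Hoxd10, chr2:74697513-74697762 for Hoxd9, chr2:74704365-74704614 for Hoxd8 and chr11:96318017-96318266 for Hoxb4. Capitals mark matches to any of 4 motifs searched on both strands, the Pbx-Hox site TGATNNAT, the Meis site TGACAG, the TATA box TATAAA and the CCAAT box CCAAT.
Hoxd10: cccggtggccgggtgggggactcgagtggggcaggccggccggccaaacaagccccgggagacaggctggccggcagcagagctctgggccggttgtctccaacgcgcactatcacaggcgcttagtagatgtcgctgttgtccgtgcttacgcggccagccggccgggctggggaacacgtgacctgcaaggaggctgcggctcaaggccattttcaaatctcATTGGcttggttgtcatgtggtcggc
Hoxd9: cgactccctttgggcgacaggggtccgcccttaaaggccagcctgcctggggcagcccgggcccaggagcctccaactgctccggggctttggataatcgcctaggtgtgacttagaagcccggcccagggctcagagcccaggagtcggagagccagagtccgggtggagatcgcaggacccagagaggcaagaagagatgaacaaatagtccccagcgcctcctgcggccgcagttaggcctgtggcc
Hoxd8: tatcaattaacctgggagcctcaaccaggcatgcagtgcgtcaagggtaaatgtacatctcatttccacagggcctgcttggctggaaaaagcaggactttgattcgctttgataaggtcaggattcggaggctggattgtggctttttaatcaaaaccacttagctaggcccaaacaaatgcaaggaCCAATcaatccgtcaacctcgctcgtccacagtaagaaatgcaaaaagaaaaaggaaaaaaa
Hoxb4: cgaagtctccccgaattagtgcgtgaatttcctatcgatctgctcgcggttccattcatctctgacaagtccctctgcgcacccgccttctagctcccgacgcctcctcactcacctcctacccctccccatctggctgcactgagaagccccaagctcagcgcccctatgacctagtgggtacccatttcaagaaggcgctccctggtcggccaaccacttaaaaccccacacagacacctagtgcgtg
Only a CCAAT box was found, once each in Hoxd10, as its complement ATTGG, and in Hoxd8. It occurs in 52.4% of the 21 windows of the 19 Hox members with a sequence, and in 33.8% of all 32851 promoter windows of this length. The Pbx-Hox site was in 14.3% of the Hox windows and 7.7% of all, the Meis site in 9.5% and 15.9%, and the TATA box in 9.5% and 12.4%. The median CpG ratio, observed over expected, was 0.687 in the Hox windows and 0.374 in all. These matches are descriptions of the letters and no binding was measured.

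Hoxd8 encodes the group 8 factor at the centre of the cluster. It read 10.84, 10.59 and 10.79 in the labelled tumorigenic arrays of mice 1, 2 and 3, and 10.37, 10.56 and 9.86 in the labelled nontumorigenic arrays. The groups did not overlap, with mouse 2 differing by only 0.037. The mean difference was 0.48 log2 units (SE 0.21, 95% interval -0.044 to 1.005, limma adjusted p = 0.671). It was 0.28 when the labelled nontumorigenic array of mouse 3 was left out and 0.25 without mouse 3. The suffix of its probe set marks probes that can match related transcripts, and its other probe set gave 0.63, also without overlap.

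Hoxd9, one of the group 9 genes needed in the mammary gland, read 9.85, 10.68 and 10.45 under the tumorigenic label, and 9.37, 9.34 and 9.53 under the other. All 3 mice were higher, by 0.48, 1.34 and 0.92. The means were 10.33 ± 0.43 and 9.42 ± 0.10 (SD, n = 3 each). The ratio was 1.88-fold, and the log2 difference of 0.91 had SE 0.24 (limma adjusted p = 0.506). Leaving out an array or a mouse gave 0.70 to 1.15.

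Hoxd10, which has been linked to mammary epithelial differentiation and to the invasion of breast cancer cells, read 6.59, 9.19 and 6.57 under the tumorigenic label and 5.90, 5.93 and 4.24 under the other. Its range of 4.94 log2 units over the arrays was the widest of all members, and the labelled tumorigenic array of mouse 2 was far above the rest. The populations averaged 7.45 ± 1.505 and 5.36 ± 0.97 (SD, n = 3 per label). The difference was 2.09 log2 units with SE 0.87 and a 95% interval of -0.050 to 4.23 (limma adjusted p = 0.651), and leaving out the labelled tumorigenic array of mouse 2 brought it to 1.22. That array also had the highest adipocyte markers and the widest Gapdh gap, and the part of either in the Hoxd10 value was not tested.

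Of the other Hoxd genes, Hoxd12 was the only one detected on all arrays, and it was also above the array median on all 6, at 4.73, 4.93 and 4.79 against 4.91, 4.41 and 4.73, a difference of 0.13. Hoxd3, known for its part in vessel growth, read 3.20, 3.87 and 3.20 against 3.07, 2.89 and 3.19. It was above the olfactory receptor mark on 3 of 6 arrays, and its difference of 0.37 was 0.14 when the labelled tumorigenic array of mouse 2 was left out and 0.064 without mouse 2. In mouse 3 its arrays differed by 0.0043. Hoxd1 and Hoxd11 were detected on no array, and Hoxd13 on 1.

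The Hoxb cluster was led by Hoxb4, a gene known for the expansion of blood stem cells. It read 6.54, 7.11 and 5.86 in the labelled tumorigenic arrays, and 5.09, 5.14 and 5.32 in the labelled nontumorigenic ones. The groups did not overlap, and mouse 3 had the smallest difference, 0.54, against 1.451 and 1.98 in mice 1 and 2. Averages of 6.50 ± 0.63 and 5.18 ± 0.12 (SD, n = 3 per label) put the ratio at 2.502-fold, and the log2 difference of 1.32 had SE 0.32 (limma adjusted p = 0.495). Leaving out the labelled tumorigenic array of mouse 3 gave 1.65 with a limma adjusted p of 0.0958. That was the smallest, and leaving out any other array or a mouse gave limma adjusted p values from 0.244 to 0.960. Leukocyte marker means on the same labelled tumorigenic arrays were 11.34, 9.85 and 6.49 in mice 1, 2 and 3, and endothelial means 7.40, 7.86 and 7.13. Both lists were lowest in mouse 3, as was Hoxb4. Hoxb4 and the endothelial mean were highest in mouse 2, and the leukocyte mean was highest in mouse 1. The part of leukocytes or endothelial cells in this value was not tested. A second Hoxb4 probe set, dim at 2.71 to 3.40, gave a difference of 0.14, and the mean of both gave 0.73.

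Hoxb3, which takes part in vessel formation, read 7.38, 7.16 and 6.04 against 6.96, 6.28 and 6.58. The labelled tumorigenic array of mouse 3 was its lowest and that of mouse 1 its highest. Its difference was 0.25, with a 95% interval from -0.72 to 1.23. Hoxb5, a gene of endothelial and gut development, read 5.24, 5.80 and 3.68 against 4.45, 4.53 and 5.68, so that mice 1 and 2 were higher by 0.79 and 1.27 and mouse 3 gave -2.003. Hoxb9 read 5.40, 5.98 and 4.90 against 5.26, 5.09 and 4.83, higher in each mouse, by 0.14, 0.89 and 0.064. Its mean difference was 0.37 (95% interval -0.37 to 1.11). Hoxb1 and Hoxb2 were detected on no array, Hoxb6 and Hoxb13 on 2 each. Hoxb7 was detected on all 3 labelled tumorigenic arrays and 1 of the others, at 3.55, 3.57 and 3.63 against 3.52, 3.17 and 3.55.

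In the Hoxc cluster no gene separated the labels by its chosen probe set. By the chosen probe sets, 4 of its 5 detected genes had opposite signs in mouse 3 and in mice 1 and 2. Hoxc8, which acts in the placement of mammary buds, read 8.89, 9.49 and 5.73 under the tumorigenic label and 8.18, 8.92 and 7.17 under the other. The groups overlapped widely. The populations differed by -0.057 log2 units (95% interval -2.69 to 2.57, the widest of all members), so that differences of either sign and of several-fold were not resolved. In mice 1 and 2 the labelled tumorigenic array was higher, by 0.71 and 0.57, and in mouse 3 the difference was -1.446.

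Hoxc4 read 7.52, 7.79 and 5.88 against 5.80, 6.89 and 7.13, with differences of 1.73, 0.90 and -1.25 in mice 1, 2 and 3. Hoxc9, of group 9, read 6.39, 6.94 and 5.18 against 5.83, 5.40 and 5.56, with differences of 0.55, 1.53 and -0.38. Hoxc6, a mammary patterning gene, read 5.55, 5.87 and 5.24 against 5.09, 5.69 and 5.72, with differences of 0.46, 0.18 and -0.48. In all 4 genes the chosen probe set was positive in mice 1 and 2 and negative in mouse 3. The other probe sets of Hoxc6 gave -0.33 and -0.45, and neither was positive in mouse 1 or 2. Hoxc5 read 4.33, 4.51 and 4.51 against 4.43, 4.50 and 4.68, and its other probe sets gave -0.0032 and 0.26, the latter without overlap at 3.71, 3.80 and 3.74 against 3.60, 3.39 and 3.48. Hoxc10 was above the mark on 1 array and Hoxc13 on none.

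**Figure D4:**
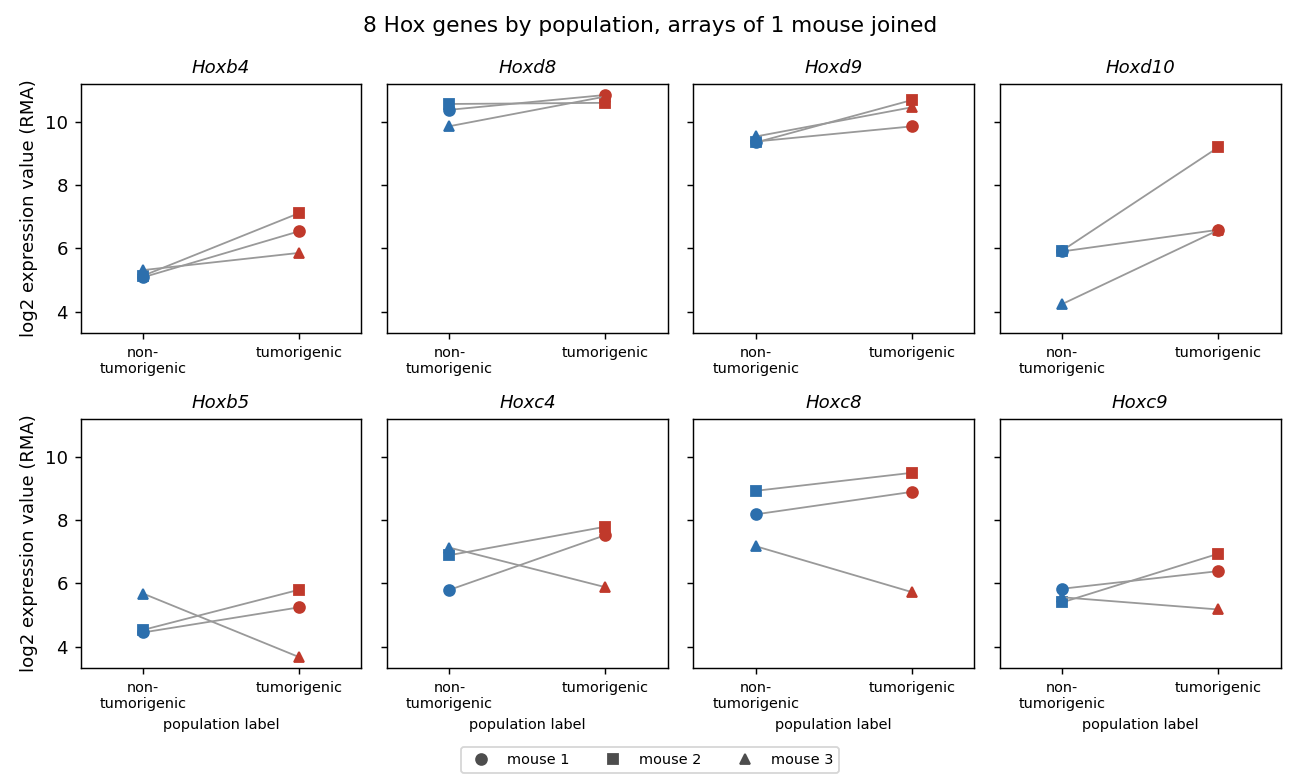
Log2 expression values (y axis) of 8 Hox genes in the 2 populations (x axis), with the arrays of each mouse joined by a line. In all 3 mice Hoxb4, Hoxd8, Hoxd9 and Hoxd10 lie higher under the tumorigenic label, and Hoxb5, Hoxc4, Hoxc8 and Hoxc9 do so in mice 1 and 2 and lie lower in mouse 3.

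The labelled tumorigenic array of mouse 3 was the lowest of the 6 in 14 of 33 members, 42.4%, against 14.5% of all genes. In the same 14 it lay below every labelled nontumorigenic array, against 23.7% of all genes. Of the 19 detected members it was lowest in 6: Hoxa3, Hoxa7, Hoxb3, Hoxb5, Hoxc8 and Hoxc9. It lay above every labelled nontumorigenic array in 8 members, among them Hoxb4, Hoxd8, Hoxd9 and Hoxd10, against 23.1% of all genes. The labelled tumorigenic array of mouse 2 was the highest of the 6 in 16 members, against 19.4% of all genes, and in 13 of the 19 detected ones. On the array of mouse 3, 7 of 8 fibroblast and 5 of 6 pericyte markers lay below every labelled nontumorigenic array, at list means of 9.16 and 9.25 against 9.66 to 10.42 and 9.46 to 10.22. There, 7 of 9 basal epithelial markers lay above, at 10.55 against 9.12 to 9.64. Of the other lists, 8 of 9 luminal epithelial and 5 of 7 T and NK cell markers lay below. On the same array 10 of 11 leukocyte, 9 of 10 endothelial and 4 of 6 adipocyte markers lay above. The part of these cell types in the Hox values was not tested. In bulk populations, fewer cells of a type and less RNA per cell cannot be told apart.

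The Hoxa cluster had 6 genes detected on all arrays and none that separated the labels. Hoxa5, which is reduced in many human breast cancers, read 5.13, 6.01 and 4.52 against 4.45, 5.54 and 3.84. The groups overlapped because the mice differed, and within mice the differences were alike, 0.68, 0.47 and 0.68. The mean difference was 0.61 log2 units (SE 0.56), with a limma adjusted p of 0.816, or 0.467 with the mouse as a block. Its other probe set gave 0.032.

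Hoxa3, a gene of pharyngeal and vessel development, read 7.17, 6.86 and 6.34 under the tumorigenic label and 7.30, 7.63 and 7.03 under the other. It was lower in each mouse, by 0.13, 0.77 and 0.69 log2 units. Its other 3 probe sets were lower on average, at -0.16, -0.020 and -0.89, but not in each mouse. That at -0.020 was higher in mice 2 and 3, at 3.64 and 3.66 against 3.27 and 3.42. That at -0.16 was higher in mouse 3, at 5.87 against 5.81. The suffix of the chosen Hoxa3 probe set marks probes that can match related transcripts. The mean difference of the chosen probe set was -0.53 (SE 0.27, 95% interval -1.19 to 0.14, limma adjusted p = 0.697). Hoxa7 read 4.76, 5.33 and 4.67 against 4.99, 4.78 and 5.04, a difference of -0.016. Hoxa9, known in blood and endothelium, read 4.34, 4.67 and 4.38 against 4.50, 4.23 and 4.38, a difference of 0.093. Both genes overlapped between the labels. Hoxa2, a hindbrain patterning gene, read 3.95, 4.03 and 4.42 against 3.95, 3.57 and 3.95. Hoxa4 read 3.87, 3.87 and 3.95 against 3.87, 3.78 and 4.28. Hoxa13, of the distal limb and genital tract, read 3.44, 3.65 and 3.35 against 3.50, 3.74 and 3.55 and was above the mark on 5 arrays. These 3 genes overlapped too. Hoxa10 was above the mark on 2 arrays and Hoxa11 on none.

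On all 3 arrays of at least 1 population, 21 of the 33 genes were above the olfactory receptor mark, against 72.8% of all genes. The other 12, of which 6 were above it on no array, read 1.90 to 4.08, with differences from -0.42 to 0.37, near or below the olfactory receptor mark, where a size is rough. Exactly equal values on different arrays occurred in 12 members. Of the 11 genes with more than 1 probe set, 3 had another one of opposite sign, namely Hoxa4, Hoxc5 and Hoxc6.

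The partners of the Hox proteins were present in the tumour. All 8 measured TALE cofactors were detected on all 6 arrays, as were 68.1% of all genes. By limma 0 passed over all genes. An unadjusted limma p below 0.05 was found in 2, both higher, against 4.74% of all genes in that direction. Meis2 read 7.68, 7.47 and 7.21 under the tumorigenic label and 6.76, 6.92 and 5.70 under the other. The groups did not overlap, and the difference was 0.99 log2 units (SE 0.35, limma adjusted p = 0.596). Meis1, a partner of Hoxa9 in blood cells, read 4.68, 4.76 and 4.64 against 4.06, 3.44 and 4.51, also without overlap, a difference of 0.69 (SE 0.28, limma adjusted p = 0.644). Of the 8 cofactors, 2 were thus higher without overlap and 0 lower, against 6.07% and 5.16% of all genes. Pbx2 and Pbx3 showed differences of 0.034 and -0.22. Pknox1 ranged from 3.74 to 6.77 with the labelled tumorigenic array of mouse 2 lowest. Over the list the median difference was 0.16, against -0.0044 for all genes.

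Factors that set Hox cluster activity did not pass the test either. Of 20 measured regulators, which include Polycomb and Trithorax proteins, Cdx factors and retinoic acid receptors, 18 were detected on all 6 arrays. Over all genes 68.1% were. By limma 0 passed over all genes, and 0 had an unadjusted p below 0.05. Over all genes 4.74% had one in the higher and 3.0% in the lower direction. Ezh2, the methyltransferase of Polycomb complex PRC2, had the smallest limma adjusted p, 0.671, at -0.60 log2 units (SE 0.26). Kmt2a, the Trithorax methyltransferase that keeps Hox genes active, had -0.12. Rarb, a retinoic acid receptor, had -0.655. Without overlap, 1 regulator was higher and 1 lower, against 6.07% and 5.16% of all genes. The higher one was the Polycomb gene Phc1, at 7.46, 7.16 and 7.16 against 6.24, 7.07 and 7.11. The lower one was the histone demethylase gene Kdm6b, with a difference of -0.052. Cdx4 was detected on no array. The median difference of the list was -0.11.

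Genes at the borders of the clusters did not separate the labels. Of 20 measured protein-coding neighbours, up to 3 on each side of a cluster, 0 had an unadjusted p below 0.05 by limma, 0 passed adjusted over all genes, and 0 lay without overlap. Over all genes, 4.74% had such an unadjusted limma p in the higher and 3.0% in the lower direction. Without overlap were 6.07% higher and 5.16% lower. Next to the Hoxd cluster, Mtx2 had a difference of -0.51 and Lnpk of 0.25, beside the positive values of Hoxd8 to Hoxd10 inside it. Evx2, the homeobox gene next to Hoxd13, read 2.91 to 3.27, and Evx1, beside Hoxa13, 3.50 to 3.95. The antisense transcript Hoxd3os1 was detected on all arrays at 4.31 to 5.31, and Hoxa11os and Hoxb5os on none.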

How the data were processed

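The authors deposited log2 expression values per probe set. The submitters' processing notes name RMA, the robust multi-array average, and the log2 scale was read from the values. The sources used here do not give the version or settings. Per the labels' protocols, RNA was amplified before labelling. In its standard form RMA sets the arrays to a common distribution, so a shift shared by most transcripts would be removed, and the number of arrays limits the precision. Array medians were 4.36 to 4.40.

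Of 45101 probe sets, 34945 had 1 symbol, 932 several, 9160 none and 64 were controls. By Entrez identifier 34741 matched RefSeq genes of GRCm38.p6, with 0 symbols changed. Each gene was represented by its probe set with the highest mean over all arrays, with no filter on dim values. The populations were compared by limma 3.58.1 in R 4.3.3 (lmFit and eBayes, two-sided, 6 arrays, no covariate) over 18193 genes, with Benjamini-Hochberg adjustment at 0.05. The script was tested on simulated data. An exact permutation test of 3 against 3 cannot go below 0.1 and was not used. Differences are labelled tumorigenic minus labelled nontumorigenic, and errors are SD over 3 arrays or the SE from limma.

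The same mice gave both populations, so mouse numbers pair the arrays. Deviations of same-mouse arrays correlated across genes at 0.079, 0.133 and 0.085, those of different mice at -0.083 to -0.011. The members and lists were chosen with earlier results of these data known. All Hox genes are named, those detected in a population or without overlap mostly by array, with their cofactors, regulators and neighbours as lists. Alternatives covered the block, dim filters, scaling, prior, array weights, probe sets, the detection reference and leaving out arrays or mice.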

Additional observations from a re-analysis of the deposited data

How the results depend on the processing

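The count of 0 Hox genes past the threshold was the same under each of the 19 alternatives run, as were the counts of 0 TALE cofactors and 0 regulators under their 18. With the mouse as a replicate block the Hox count was 0, with a smallest limma adjusted p of 0.467, and the block changed no Hox call. With the block no gene of any kind passed, the smallest limma adjusted p over all genes being 0.413. The count of 0 there does not set the Hox genes, cofactors or regulators apart. The 19 detected Hox genes were 12 above the array median, 14 by vomeronasal receptors and keratin-associated proteins, 15 and 22 at the 99th and 90th percentile, 17 by probe set means, and 19 to 20 without 1 array. Genes without overlap, 5 higher and 0 lower, were 3 and 1 with arrays centred on the median of their gene values, where Hoxd3 and Hoxd8 overlapped. These counts were 5 to 13 and 0 to 4 when an array or a mouse was left out. In those settings 8.48% to 20% of all genes were higher and 7.73% to 18.3% lower. The highest counts came without mouse 3: 13 higher, where 20% of all genes were. The labelled tumorigenic array of mouse 3 alone, an alternative chosen after seeing the data, gave 8 higher and 14 lower, against 23.1% and 23.7% of all genes. The median Hox difference ran from -0.061 to 0.182 without an array or mouse, and was -0.165 for mouse 3 alone. No difference of the 5 genes without overlap changed sign under any alternative. For the block, mouse 3 alone and leaving out arrays or mice this was fixed beforehand. These genes were picked because each labelled tumorigenic array lay above all the others. Their ranges without an array or mouse were 0.997 to 1.71 for Hoxb4, 0.0642 to 0.553 for Hoxd3, 0.252 to 0.702 for Hoxd8, 0.699 to 1.15 for Hoxd9 and 1.22 to 2.79 for Hoxd10. With 3 arrays a population, an interval such as that of Hoxc8 leaves several-fold differences unresolved.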

Other observations

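A probe set shared by Hoxb8 and Hoxb7, left out because it names 2 genes, read 4.35, 5.60 and 3.95 in the labelled tumorigenic arrays of mice 1, 2 and 3, and 4.34, 6.62 and 2.50 in the labelled nontumorigenic arrays. Both arrays of mouse 2 were the highest of their label and both of mouse 3 the lowest. The probe set of Hoxb7 alone read 3.17 to 3.63 on all arrays. A pair of probe sets shared by Hoxd4 and Hoxd3 read 3.86 to 4.39 and 2.45 to 2.84. A second probe set of Hoxc5, not the one chosen, ranged from 2.19 to 5.57 over the arrays, where the chosen one ranged from 4.33 to 4.68.

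A second probe set of Hoxa9 read 2.88, 3.11 and 4.73 in the labelled tumorigenic arrays of mice 1, 2 and 3, and 2.28, 2.21 and 3.32 in the labelled nontumorigenic ones, higher in each mouse, with a mean difference of 0.97 against 0.093 for the chosen probe set. Both arrays of mouse 3 were its highest of their label. Hoxa3 had a probe set that read 4.10 and 3.82 in the labelled nontumorigenic arrays of mice 1 and 2 and 2.54 to 2.76 on the other arrays.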
